A study of Mus musculus with 6 samples.

Results

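The Schlafen genes of the mouse were examined in RNA-seq data from cultured dendritic cells, which are the main antigen-presenting cells. The members were the 7 genes Slfn1, Slfn2, Slfn3, Slfn4, Slfn5, Slfn8 and Slfn9, chosen by gene name from the 54532 rows of the deposited count table. The 6 libraries were 3 of dendritic cells labelled Control and 3 of dendritic cells labelled DB2313, a small molecule used by the study to inhibit the transcription factor Spi1 (PU.1). Both groups were mouse cells kept in culture medium with fetal bovine serum. The labels gave no strain, age, genotype, dose or time, and did not say whether the libraries came from separate cultures or animals, so the p-values measure only the spread between these libraries. In the count table the treated columns were named for Spi1 and not for the compound, and all directions depend on this reading of the names. The methods of the study describe peritoneal macrophages, whereas the labels name dendritic cells.

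Schlafen genes are induced by interferon in many immune cells, and they were first described as genes whose expression changes as thymocytes mature and T cells are activated. Slfn1 and Slfn2 encode the short members, known for growth arrest and for the quiescence of resting T cells. Slfn3 and Slfn4 encode members of intermediate length, and Slfn4 is best known from myeloid cells. Slfn5, Slfn8 and Slfn9 encode the long members, which carry a helicase-like part at the end of the protein.

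The 7 genes lay in 1 cluster of 263.805 kb on chromosome 11 (GRCm38), from 82951349 to 83215154. Slfn5 (82951349 to 82964840), Slfn2 (83065112 to 83070678), Slfn1 (83116849 to 83122670), Slfn4 (83175186 to 83190216) and Slfn3 (83191330 to 83215154) were on the plus strand. Slfn9 (82978390 to 82991830) and Slfn8 (83002158 to 83020810) were on the minus strand. The gene lengths deposited by the authors ran from 1664 bp for Slfn2 to 6326 bp for Slfn5.

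Sequences just before the start sites were read from the RefSeq promoter table (GRCm38.p6), which covers 250 bases before and 50 bases after each start. All 7 members had a window there, with 8 windows in all because Slfn8 had more than 1. Positions are counted from the RefSeq start site, with -1 for the base just before it. That start was 83116820 for Slfn1, just before the deposited start of the gene, and 82952102 for Slfn5, within the deposited gene. The windows of Slfn1 (chr11:83116726-83116776), Slfn2 (chr11:83065037-83065087) and Slfn4 (chr11:83175093-83175143) shared a stretch of 11 bases, found after the sequences had been seen. It is printed in capitals, on the plus strand:
Slfn1: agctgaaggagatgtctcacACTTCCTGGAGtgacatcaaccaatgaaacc
Slfn2: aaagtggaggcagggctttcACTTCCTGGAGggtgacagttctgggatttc
Slfn4: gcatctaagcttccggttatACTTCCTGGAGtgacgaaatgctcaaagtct

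The stretch began at position -74 in Slfn1, at -55 in Slfn2 and at -73 in Slfn4. On either strand, 24 of the 32851 windows of the table (0.0731%) held it, these 3 among them. The stretch was picked because these 3 windows hold it, so the percentage is no test. Its first 9 bases were also present before Slfn3, from -42 to -34, and on either strand in 0.843% of all windows. In pairs the common run was longer, with 15 bases for Slfn1 and Slfn4 and 12 for Slfn1 and Slfn2. The letters ACTTCC are the reverse complement of GGAAGT, which holds the GGAA core that ETS factors such as PU.1 are known to bind. Of the 3 members that held the stretch of 11 bases, Slfn1 passed the test between the groups and Slfn2 and Slfn4 did not.

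The core of the interferon-stimulated response element, GAAANNGAA on either strand, was found in 4 of the 8 windows, of 3 members (Slfn5, Slfn8 and Slfn9), and in 8.56% of all windows. Both windows of Slfn8 held the same genomic match, so these 4 windows count 1 site again. Slfn5 held it at 2 places, and Slfn8 and Slfn9, both read on the minus strand, held the same 9 letters. The matches are in capitals in the windows of Slfn5 (chr11:82951937-82951988), Slfn8 (chr11:83020824-83020882) and Slfn9 (chr11:82991841-82991899):
Slfn5: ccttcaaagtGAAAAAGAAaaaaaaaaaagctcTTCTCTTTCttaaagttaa
Slfn8: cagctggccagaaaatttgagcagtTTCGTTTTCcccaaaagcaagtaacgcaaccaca
Slfn9: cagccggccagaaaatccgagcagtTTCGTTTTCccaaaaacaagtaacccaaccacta

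The matches lay at -155 and -132 in Slfn5, at -44 in Slfn9 and, in Slfn8, at -47 from the start at 83020810 or -135 from the start at 83020722 (first base). A PU.1 core, GAGGAAGT on either strand, was in 0 of the 8 windows and in 3.2% of all windows. The composite of ETS and IRF cores, GGAANNGAA on either strand, was in 1 window, that of Slfn2 from -58 to -50, and in 8.24% of all. This match overlaps the shared stretch of Slfn2. These are matches of letters only, and binding was not measured. Of the 3 members with the interferon element, Slfn5 passed the test between the groups, Slfn8 and Slfn9 did not.

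Total counts ranged from 16146743 to 19764677 per library, and all 7 members were among the 14174 genes with enough counts to be tested. Replicates of a group differed by more than sampling noise, with chi-square per degree of freedom of 5.02 to 5.55 between control libraries and 7.99 to 19.4 between DB2313 libraries. The highest value was that of DB2313 replicates 1 and 3. Among markers of dendritic cells, 14 of 15 were tested, Cd74 was at 6557 CPM (counts scaled to a common library size) and Ccr7 at 1535 CPM in control, and Cd209a was near 0 (0.0209 CPM). Markers of macrophages, neutrophils, T cells and mast cells were present too and are given beside the members at the end. In such bulk samples, fewer cells of a type and less RNA per cell cannot be told apart.

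The comparison of DB2313 with control asked which Schlafen transcripts changed with the Spi1 inhibitor. Slfn1 and Slfn5 were higher with DB2313, by 1.33-fold and 1.35-fold, and the other 5 members did not pass the test. Genes were tested by edgeR's quasi-likelihood method with Benjamini-Hochberg adjustment over all 14174 genes, at an adjusted p under 0.05. With it, 2 of 7 members were higher, where 4.66% of all genes tested were, and 0 of 7 were lower, where 5.94% of all genes were. The only members with an unadjusted p under 0.05 were these 2, and DESeq2 and limma-voom also called 0 members lower. DESeq2 called the same 2 members higher, whereas limma-voom, robust edgeR and scaling by library totals called 1, Slfn1, with an adjusted p for Slfn5 of 0.0715, 0.109 and 0.0548. When 1 library was left out, the number of members higher was 1, except without DB2313 replicate 1, where it was 3 (Slfn1, Slfn5 and Slfn8). The log2 fold change was positive in 6 of 7 members, with a median of 0.18, against 8.2e-04 over all genes tested. These signs were not all stable. A fit without 1 library turned Slfn2 to -0.0032, Slfn4 to -0.11 and Slfn9 to -0.13, and Slfn3, the negative member, to 0.20. The libraries of both groups did not overlap in CPM in 1 member, Slfn1, which lay above control (12.9% of all genes did so), and 0 members lay below it (14.5% of all genes).

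**Figure D1:**
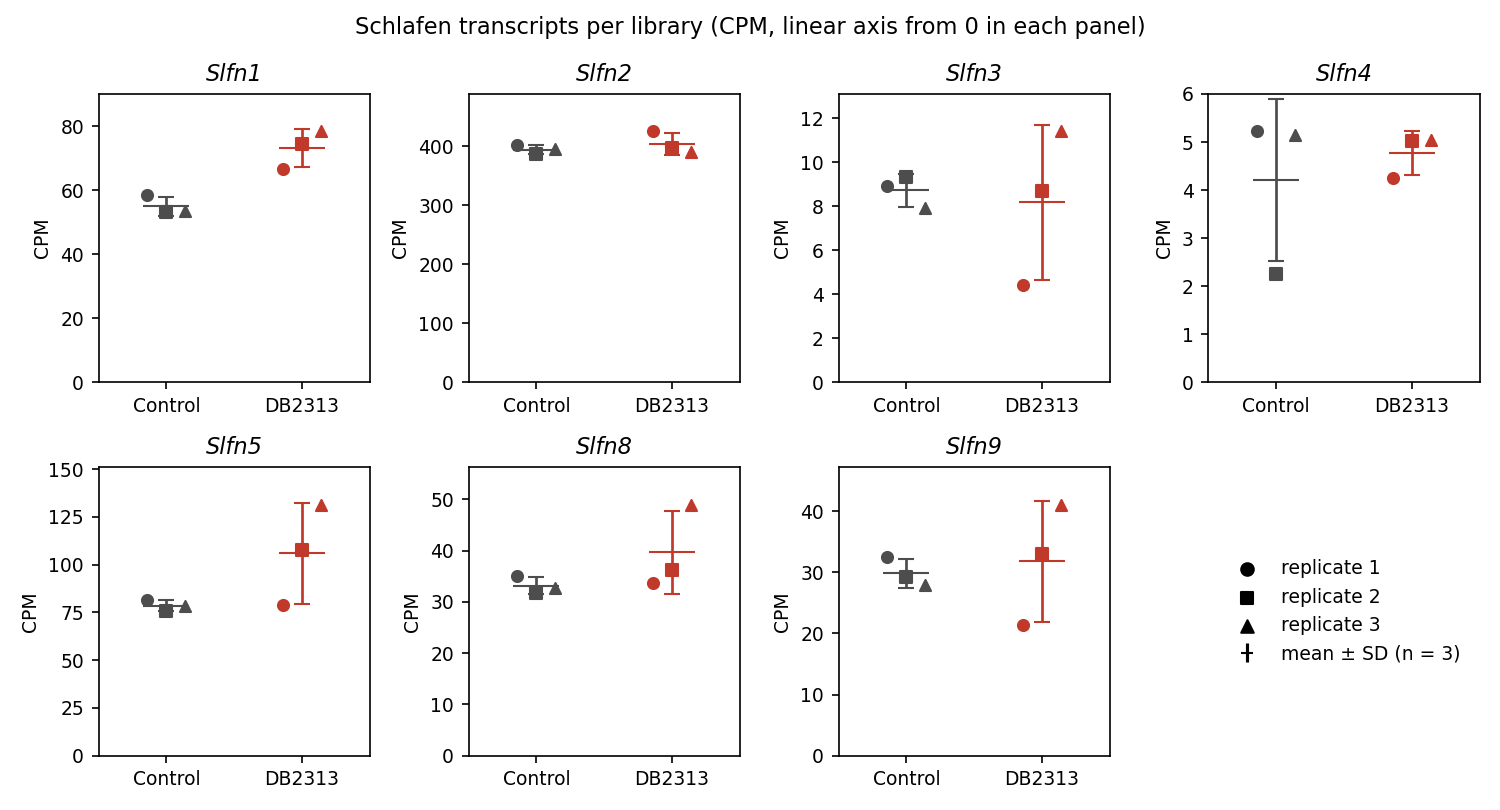
CPM of each Schlafen gene in the 3 control (grey) and 3 DB2313 (red) libraries, with the replicate number as the marker shape and the bar as mean ± SD (n = 3); each panel has its own linear axis from 0. For Slfn1 all DB2313 libraries (66.7 to 78.5 CPM) lay above all control libraries (53.3 to 58.5 CPM), and for the other 6 genes the groups overlapped.

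Slfn1 (ENSMUSG00000078763), whose product is known to hold back the growth of thymocytes, had 952, 850 and 852 counts in control replicates 1 to 3 and 1099, 1487 and 1307 counts in DB2313 replicates 1 to 3. Scaled to the library size, these were 58.5, 53.3 and 53.4 CPM in control and 66.7, 74.6 and 78.5 CPM with DB2313. All DB2313 libraries were above all control libraries. The mean rose from 55.1 ± 2.98 CPM to 73.3 ± 6.01 CPM (SD, n = 3 each), and the log2 fold change was 0.41 ± 0.086 (SE), a fold of 1.33, with an edgeR adjusted p of 0.00592. This call held in 20 of 22 alternative analyses and was lost in the test against a 1.5-fold change and in a fit with a gene length offset without DB2313 replicate 2 (0.37, adjusted p 0.0529).

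Slfn2 (ENSMUSG00000072620), needed for the quiescence of T cells and monocytes, was the most abundant member. It had 6526, 6158 and 6297 counts in control and 7005, 7897 and 6488 counts with DB2313, or 401, 386 and 395 CPM against 425, 396 and 389.9 CPM. The groups overlapped, and DB2313 replicate 1 was the highest of all. Slfn2 had a log2 fold change of 0.035 ± 0.066 (SE), with an edgeR adjusted p of 0.810. Its sign turned with an offset for gene length (-0.016) and without DB2313 replicate 1 (-0.0032), so no direction can be given. Within each library, the ratio of Slfn1 to Slfn2 counts was 0.135 to 0.146 in control and 0.157 to 0.201 with DB2313. These ranges did not overlap, and the exact two-sided permutation test gave a p of 0.1, the smallest that 3 against 3 libraries allow. This ratio was not planned and uses the same Slfn1 counts, so it is no separate support. The ratio of Slfn5 to Slfn2 counts, also not planned, overlapped. It was 0.196 to 0.203 in control and 0.185 to 0.337 with DB2313 (exact two-sided permutation test, p of 0.4).

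Slfn4 (ENSMUSG00000000204), known from the activation of macrophages, was the least abundant member. It had 85, 36 and 82 counts in control and 70, 100 and 84 counts with DB2313. Control replicate 2 was low, at 2.26 CPM, and the other 5 libraries lay between 4.25 and 5.23 CPM. With all libraries the log2 fold change was 0.18 ± 0.279 (SE; edgeR adjusted p 0.761), and leaving out control replicate 2 gave -0.11.

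Slfn3 (ENSMUSG00000018986), a close relative of Slfn4, had 145, 149 and 126 counts in control and 73, 173 and 190 counts with DB2313. In CPM these were 8.92, 9.35 and 7.90 against 4.43, 8.68 and 11.4. The DB2313 libraries thus spread on both sides of the control libraries, with replicate 1 below all of them and replicate 3 above all of them. For Slfn3 the log2 fold change was -0.091 ± 0.249 (SE), with an edgeR adjusted p of 0.875, and without DB2313 replicate 1 it was 0.20. Transcripts of Slfn3 and Slfn4 shared a stretch of 1172 bp at 96.2% identity, so reads could be split between them. Slfn3 also shared 379 bp at 95.3% identity with Slfn2, whose counts were far higher. With the counts of Slfn3 and Slfn4 summed, the log2 fold change was 0.0031 ± 0.189 (SE), with an edgeR adjusted p of 0.995. The ratio of Slfn3 to Slfn4 counts was 1.54 to 4.14 in control and 1.04 to 2.26 with DB2313 (exact two-sided permutation test, p of 0.7).

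Slfn5 (ENSMUSG00000054404), a long member found in the nucleus, had 1327, 1205 and 1248 counts in control and 1297, 2152 and 2187 counts with DB2313. In CPM these were 81.6, 75.6 and 78.3 against 78.8, 107.9 and 131. DB2313 replicate 1 lay within the control libraries, and replicates 2 and 3 lay above them. The mean rose from 78.5 ± 3.01 CPM to 106 ± 26.4 CPM (SD, n = 3 each), a log2 fold change of 0.43 ± 0.132 (SE), a fold of 1.35, with an edgeR adjusted p of 0.0479. The call held in 12 of 22 alternatives and was lost without any 1 control library (adjusted p 0.128 to 0.176), without DB2313 replicate 2 (0.155) and without DB2313 replicate 3 (0.0799). It remained only without DB2313 replicate 1, and the log2 fold changes ran from 0.25 to 0.61 over these 6 analyses. An antisense gene, Slfn5os, overlapped the exons of Slfn5 over 559 bp. The strandedness of the libraries was not stated, and Slfn5os had 1 count in all 6 libraries together. Transcripts of Slfn5 also shared short stretches with many other genes, up to 214 bp with Gm38047.

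Slfn8 (ENSMUSG00000035208), a long member, had 571, 506 and 522 counts in control and 556, 724 and 815 counts with DB2313. In CPM these were 35.1, 31.7 and 32.7 against 33.8, 36.3 and 49.0. DB2313 replicate 1 lay within the control libraries, replicate 2 just above them and replicate 3 well above. The log2 fold change of Slfn8 was 0.26 ± 0.123 (SE), and its edgeR p was 0.0556 before and 0.229 after adjustment. Without DB2313 replicate 1 it was 0.36, with an edgeR adjusted p of 0.0390, and without DB2313 replicate 3 it was 0.080, with an adjusted p of 0.665.

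Slfn9 (ENSMUSG00000069793), a long member next to Slfn8 in the cluster, had 528, 465 and 444 counts in control and 352, 657 and 683 counts with DB2313. In CPM these were 32.5, 29.2 and 27.8 against 21.4, 32.9 and 41.0. DB2313 replicate 1 was the lowest of the 6 libraries, and replicates 2 and 3 were the highest. The log2 fold change was 0.093 ± 0.168 (SE), with an edgeR adjusted p of 0.801, and without DB2313 replicate 3 it was -0.13. Transcripts of Slfn8 and Slfn9 shared 3857 bp at 92.0% identity, and 725 bp at 96.7% where at least 95% identity was asked for. With their counts summed, the log2 fold change was 0.18 ± 0.132 (SE), with an edgeR adjusted p of 0.456. The ratio of Slfn8 to Slfn9 counts was 1.08 to 1.18 in control and 1.10 to 1.58 with DB2313 (exact two-sided permutation test, p of 0.2), with the highest value in DB2313 replicate 1.

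Of 4 related genes that are no members, 1 was tested. Slfn10-ps (83028130 to 83040042, minus strand), a transcribed pseudogene between Slfn8 and Slfn2, had 165, 223 and 150 counts in control and 97, 145 and 141 counts with DB2313. All DB2313 libraries, at 5.89 to 8.47 CPM, were below all control libraries, at 9.41 to 14.0 CPM. The log2 fold change was -0.63 ± 0.189 (SE), with an edgeR adjusted p of 0.0446, and the call held in 10 of 21 alternatives. Its adjusted p was 0.269 without control replicate 2, where its count was highest, and 0.0504 with a replicate block. Transcripts of Slfn10-ps and Slfn8 shared 3533 bp at 92.2% identity, and 726 bp at 96.4% where at least 95% was asked for, much as Slfn8 and Slfn9 did. With the counts of Slfn8, Slfn9 and Slfn10-ps summed, an analysis added after the values were seen, the log2 fold change was 0.084 ± 0.128 (SE), with an edgeR adjusted p of 0.758. Slfn14, a long member, had 0 to 6 counts per library, and the Schlafen-like gene Slfnl1 had 0 to 3, which was too few to test.

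Levels were compared between members only per kilobase of gene length, as CPM per kb (RPKM). In control the order was Slfn2 (237 ± 4.52 RPKM), Slfn1 (29.6 ± 1.60), Slfn5 (12.4 ± 0.475), Slfn8 (8.11 ± 0.423), Slfn9 (5.00 ± 0.398), Slfn3 (2.56 ± 0.217) and Slfn4 (1.06 ± 0.426), each as mean ± SD of 3 libraries. With DB2313 the order was the same, from 243 ± 11.4 RPKM for Slfn2 and 39.3 ± 3.22 RPKM for Slfn1 down to 1.20 ± 0.114 RPKM for Slfn4. Within each group the ranges of neighbours in this order did not overlap. Over all 6 libraries the ranges of Slfn5 and Slfn8 overlapped, as did those of Slfn3 and Slfn4. Without the length, Slfn5 ranked above Slfn1 (92.3 against 64.2 CPM over all libraries).

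**Figure D2:**
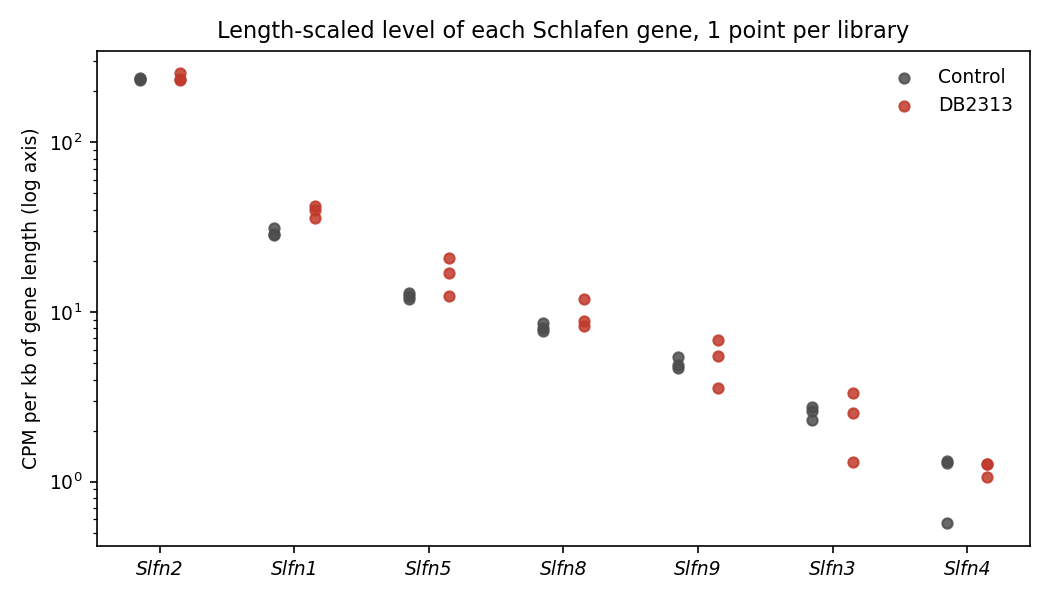
Level of each Schlafen gene per kilobase of deposited gene length (RPKM, log axis) in each of the 3 control (grey) and 3 DB2313 (red) libraries, 1 point per library, in falling order. Slfn2 stood apart at 232 to 256 RPKM and Slfn4 was lowest at 0.570 to 1.32 RPKM.

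The 7 genes together had 623, 588 and 600.3 CPM in control and 635, 661 and 706 CPM with DB2313. All DB2313 libraries were above all control libraries in this sum, for which no test was made. Slfn2 alone took 64.4% to 65.8% of the Schlafen counts in control and 55.2% to 67.0% with DB2313. The share of Slfn1 was 8.90% to 9.39% in control and 10.5% to 11.3% with DB2313. The share of Slfn5 was 12.9% to 13.1% in control, and 12.4%, 16.3% and 18.6% in DB2313 replicates 1 to 3. Leaving out Slfn2, the sum was 222, 201 and 205 CPM in control and 209, 265 and 316 CPM with DB2313, and the groups overlapped.

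The DB2313 libraries differed from each other in these genes. In 6 of 7 members replicate 1 was the lowest and replicate 3 the highest of the DB2313 libraries, and for Slfn2 it was the other way round. On the log2 scale, against the control mean, the replicates 1 to 3 were at 0.28, 0.44 and 0.51 for Slfn1 and at 0.0049, 0.46 and 0.74 for Slfn5. The widest spread was that of Slfn3, from -0.98 to 0.39. Slfn9 spread from -0.48 to 0.46 and Slfn8 from 0.024 to 0.56. The narrowest spread was that of Slfn2, from -0.016 to 0.11.

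**Figure D3:**
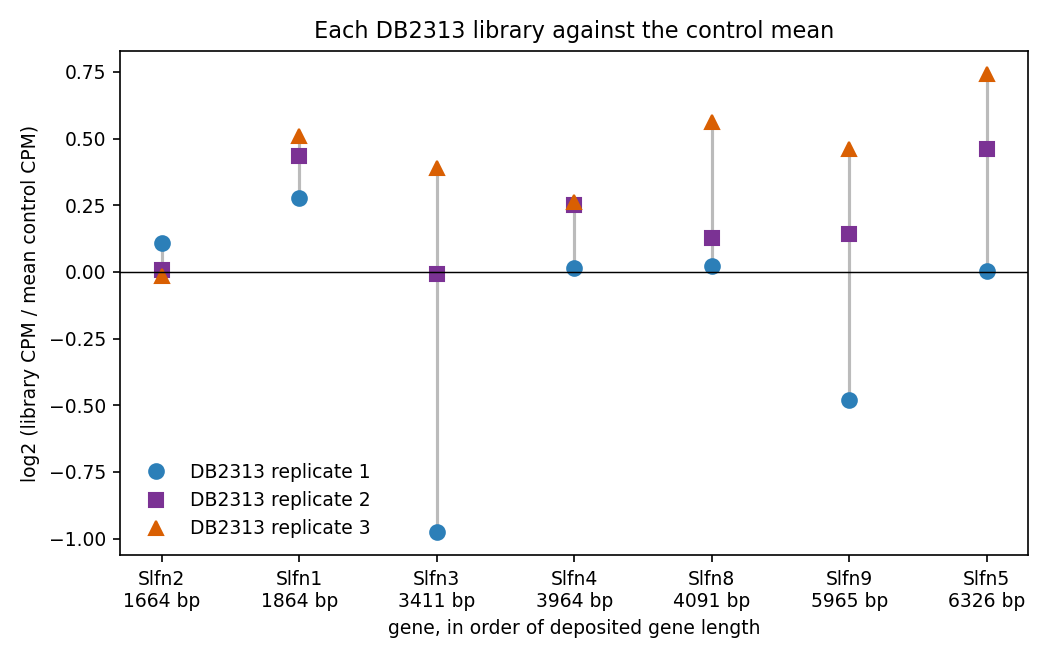
Log2 ratio of each DB2313 library to the mean of the control libraries for each Schlafen gene, in order of deposited gene length (bp); the grey line joins the 3 libraries and the black line marks 0. Replicate 1 was lowest in 6 genes, down to -0.98 for Slfn3, and all 3 libraries of Slfn1 were above 0.

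A trend with gene length ran through the same libraries. Over the 2821 tested genes under 2 kb, the class of Slfn1 and Slfn2, the median log2 ratio to the control mean was 0.166, 0.0969 and -0.0189 in DB2313 replicates 1 to 3. Over the 4291 genes of 2 to 4 kb, the class of Slfn3 and Slfn4, it was 0.0619, 0.0296 and -0.0189. Over the 7062 genes of 4 kb or more, the class of Slfn5, Slfn8 and Slfn9, it was -0.087, -0.0385 and 0.0191. Slfn2, Slfn5, Slfn8 and Slfn9 had the replicates in the same order as their length classes. Slfn1, Slfn3 and Slfn4 had replicate 1 lowest and replicate 3 highest, the reverse of the order in their length classes. An offset for the trend with gene length left the log2 fold change of Slfn1 at 0.37 ± 0.091 (SE; edgeR adjusted p 0.0103) and that of Slfn5 at 0.45 ± 0.112 (SE; adjusted p 0.0109). With the offset Slfn8 stood at 0.26 and Slfn9 at 0.11, neither past the threshold.

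**Figure D4:**
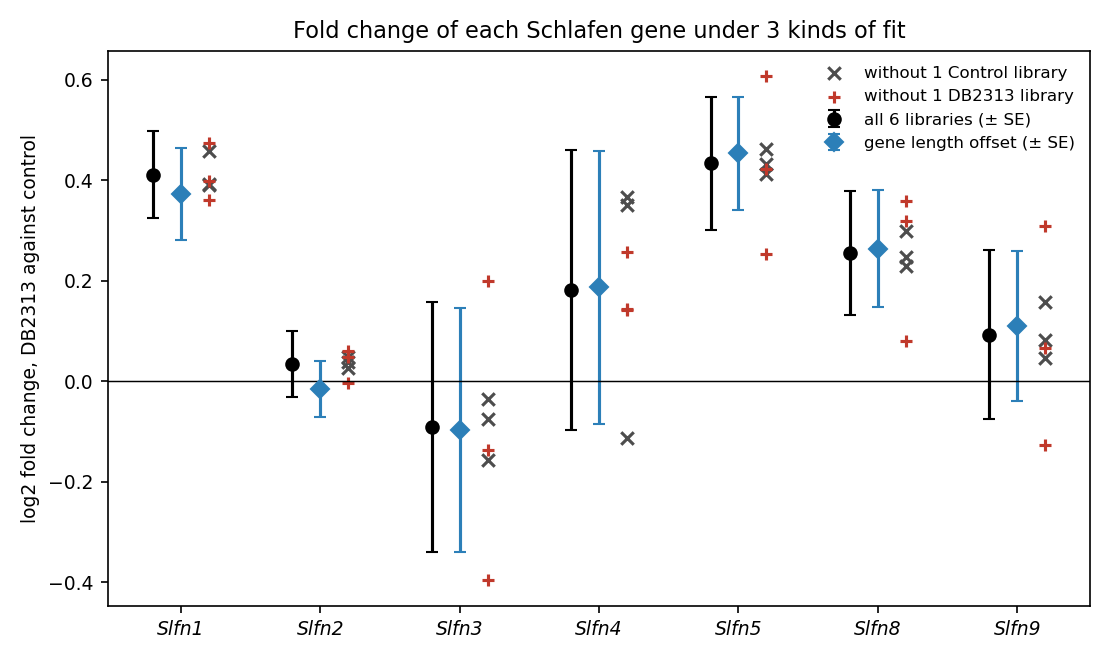
Log2 fold change (DB2313 against control) of each Schlafen gene with all 6 libraries (black, ± SE), with an offset for gene length (blue, ± SE), and without 1 control (grey crosses) or 1 DB2313 library (red crosses). Slfn1 stayed between 0.36 and 0.48 when 1 library was left out, and Slfn5 between 0.25 and 0.61, while Slfn2, Slfn3, Slfn4 and Slfn9 had values on both sides of 0.

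Interferon receptors signal through JAK kinases to STAT and IRF factors, which switch on the interferon-stimulated genes, Schlafen genes among them. A list of 69 other interferon-stimulated genes, chosen with earlier results of these data known, was set beside the members. Of its 68 tested genes, 23 (33.8%) were higher and 3 (4.41%) were lower with DB2313, against 4.66% and 5.94% of all genes, and the median log2 fold change was 0.22. The highest were Ifit3b (2.49) and Ifit3 (1.18), which are close copies of an antiviral gene, so that reads could be split between them, and Oasl1 (1.22), of the oligoadenylate synthetase family. The lowest were Ifi44 (-0.89) and the guanylate-binding proteins Gbp5 (-0.39) and Gbp2 (-0.32). The summed level of the list was 5814 to 5845 CPM in control and 6134, 6328 and 6877 CPM in DB2313 replicates 1 to 3, so that replicate 1 was the lowest of the DB2313 libraries here as for Slfn5. The log2 fold changes of Slfn1 (0.41), Slfn5 (0.43) and Slfn8 (0.26) lay above the median of this list. Those of Slfn2 (0.035), Slfn3 (-0.091), Slfn4 (0.18) and Slfn9 (0.093) lay below it, as did the median of the members (0.18).

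Upstream of these genes, a list of 42 interferon ligands, receptors and signalling genes, also chosen with earlier results known, had 33 tested. Of these, 4 (12.1%) were higher and 3 (9.09%) lower, against 4.66% and 5.94% of all genes. The median log2 fold change of the list was -0.025. Type I and lambda interferon genes had almost no counts. Ifnb1 and Ifna1 had a mean of 0.0627 CPM each in control and no count with DB2313, and 5 such genes had no count in any library, which allows up to 3 counts in each. Ifng had a mean of 1.19 CPM in control libraries and of 0.738 CPM in DB2313 libraries (edgeR adjusted p 0.442). Of the receptor chains for type I interferon, Ifnar1 was at -0.18 and Ifnar2 at 0.14 (log2 fold change), and neither passed. Of those for interferon gamma, Ifngr1 was higher (0.38 ± 0.069 SE, edgeR adjusted p 0.00214) and Ifngr2 did not pass (-0.11). The kinases Jak1 (-0.22) and Tyk2 (-0.15) did not pass. Irf7 (0.42, edgeR adjusted p 0.0218) was higher, whereas Stat2 (0.29), Irf9 (0.045) and Irf1 (-0.044) did not pass. Other calls, named after their values were seen, were Mavs (0.35), higher, and Jak2 (-0.26), Irf5 (-0.25) and Ifnlr1 (-0.80), lower. Spi1 itself, the target of DB2313, was at -0.15 with an adjusted p of 0.206.

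Because Slfn1 and Slfn2 are known for growth arrest, 35 cell cycle genes, also chosen with earlier results known, were set beside them. All were tested, and 2 (5.71%) were higher and 1 (2.86%) was lower, against 4.66% and 5.94% of all genes. Their median log2 fold change was 0.080. In 12 of the 35 all DB2313 libraries lay above all control libraries (12.9% of all genes), and in 3 below (14.5% of all genes). The summed level of the list was 3191 to 3244 CPM in control and 3376 to 3418 CPM with DB2313, for which no test was made. Those called, named after their values were seen, were the cyclin Ccnd1 (0.71) and the replication helicase gene Mcm7 (0.25), higher, and the mitotic kinase Plk1 (-0.40), lower. Mki67, a marker of dividing cells, had a mean of 251 CPM in control libraries and of 241 CPM in DB2313 libraries (edgeR adjusted p 0.766).

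The other genes around the cluster were examined by position. Within 300 kb of it, 16 other protein-coding genes were annotated and 11 were tested. Of these, 1 passed, the ubiquitin ligase gene Rffl, which was lower (-0.38 ± 0.106 SE, edgeR adjusted p 0.0294). Over all genes tested, 4.66% were higher and 5.94% lower. The log2 fold changes of the 11 ran from -0.38 to 0.22, with a median of -0.032. Nle1, the tested gene next to Slfn5, was at 0.040.

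**Figure D5:**
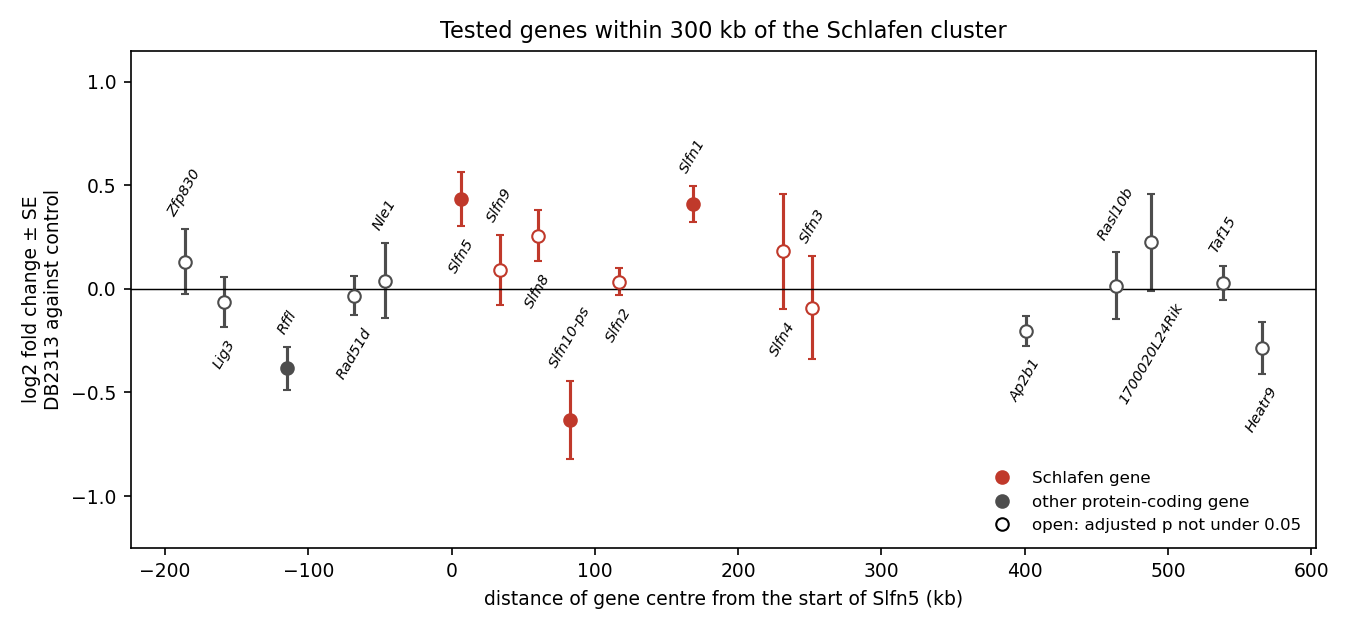
Log2 fold change (DB2313 against control, ± SE) of the tested genes within 300 kb of the Schlafen cluster, by the distance of the gene centre from the start of Slfn5 (kb); Schlafen genes are red, other protein-coding genes grey, and filled points had an adjusted p under 0.05; 1 neighbour is not shown. Slfn5 (0.43) and Slfn1 (0.41) were the highest, with Slfn2 (0.035) between them, and Slfn10-ps (-0.63) was the lowest.

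The genes whose level over the 6 libraries was most like that of each member were found by Pearson correlation of log2 CPM among 12355 protein-coding genes outside the cluster. This is a description over 6 libraries that share their depth and group structure, and 19 to 149 genes exceeded 0.95 for each member. For Slfn1 they were Gsap (0.998), Ldlrad3 (0.995) and Fcgr2b (0.993), and for Slfn5 they were Ankle2 (0.999), Clspn (0.992) and Gbp3 (0.987). For Slfn8 they were Ifi206 (0.990), Arap3 (0.986) and Fh1 (0.984), and for Slfn9 they were Zscan18 (0.991), Por (0.988) and Sgms1 (0.987). For Slfn2 they were Sdhb (0.989), Aldh5a1 (0.989) and Hexdc (0.986). For Slfn3 they were Shprh (0.998), Jmjd4 (0.996) and Trim14 (0.993), and for Slfn4 they were Tph1 (0.989), Hist3h2ba (0.989) and Klhdc8b (0.987).

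Markers of other cells moved between the libraries. For the counts of called markers below, the shares over all genes tested were 4.66% higher and 5.94% lower. The summed level of 11 neutrophil markers was 4476 to 5024 CPM in control and 5936, 4938 and 4526 CPM in DB2313 replicates 1 to 3, with 3 of its genes higher and 1 lower. That of 10 T cell markers was 360 to 390.1 CPM in control and 443, 390.1 and 356 CPM with DB2313, with 1 gene higher, and that of 7 mast cell and basophil markers was 1358 to 1434 CPM against 1634, 1536 and 1371 CPM, with 2 higher. The 15 dendritic cell markers summed to 12060 to 12310 CPM in control and 12100, 11270 and 10370 CPM with DB2313, with 2 genes higher and 3 lower. The 9 macrophage markers summed to 1354 to 1476 CPM in control and 1081, 1173 and 1359 CPM with DB2313, with 1 gene higher and 5 lower. The 5 plasmacytoid dendritic cell markers summed to 251.9 to 279 CPM in control and 266, 259.9 and 239.9 CPM with DB2313. The 5 B cell markers summed to 2.82 to 4.06 CPM in control and 6.44, 5.47 and 5.05 CPM with DB2313, with Ms4a1 and Pax5 near 0. Among the DB2313 libraries, replicate 1 was the highest and replicate 3 the lowest in 6 of these 7 lists, as for Slfn2. The macrophage list had the opposite order, as had the other 6 members. The part of these cells in the Schlafen levels was not tested.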

How the data were processed

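RNA-seq was performed on 6 libraries of mouse dendritic cells, 3 control and 3 treated with DB2313. The authors deposited raw counts per gene in 1 table, with gene lengths and coordinates. The submitters' processing notes list CASAVA 1.8, HISAT2 2.0.5 and featureCounts 1.5.0-p3, whereas the methods of the study name LifeScope. Strandedness, the genome build and the treatment of multi-mapping reads were not given in the sources used here. Coordinates are called GRCm38 because the start and end of all 7 members, and of 98.33% of the genes found in GENCODE M21, were equal to those in it.

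Columns were matched to the labels by their names and numbers, and groups were taken from the treatment label. Counts were tested with edgeR 4.0.16 in R 4.3.3, using TMM scaling, filterByExpr, the quasi-likelihood test on group alone, and adjusted p-values by Benjamini-Hochberg. CPM used TMM-scaled library sizes. The biological coefficient of variation was 9.66%. The alternatives were other scalings and filters, a table limited to protein-coding genes, a prior count of 2, robust edgeR, limma-voom (limma 3.58.1), DESeq2 1.42.0, glmTreat against a 1.5-fold change, a gene length offset (lowess span 0.3), a replicate block, summed counts of similar members, and the omission of each library. Similar transcripts were searched with blastn 2.17.0. The scripts were tested on simulated data. There, 85 of 198 genes changed by 1.4-fold were called (42.9%), and 92.9% of those changed by 2-fold. A gene that did not pass may therefore still have changed. The size of change that could be missed was not tested for each gene. Among the members, the SE of the log2 fold change ran from 0.066 for Slfn2 to 0.279 for Slfn4. No molecular identifiers were described, so that reads may not be independent molecules.

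The members and lists were chosen with earlier results of these data known. Genes named were the members, their relatives and neighbours, the 3 genes most like each member, the 3 highest and 3 lowest called genes of the interferon list with a mean log2 CPM from 1 upwards, and the receptors, kinases and factors of the signalling list, unless the text says that a gene was singled out after its values were seen. The values of 3 genes that the rule or the lists hold are not reported here.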

Additional observations from a re-analysis of the deposited data

How the results depend on the processing

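The number of members higher with DB2313 was 1 with library totals, robust edgeR and limma-voom, 0 with glmTreat, and 1 to 3 over the fits that left out 1 library. Fits with the gene length offset that also left out a DB2313 library were added after the data were seen. Slfn1 lost its call with glmTreat (0.41, adjusted p 1) and with the gene length offset without DB2313 replicate 2 (0.37). Slfn5 lost its call with library totals (0.46, adjusted p 0.0548), robust edgeR (0.43, 0.109), limma-voom (0.40, 0.0715), glmTreat (0.43, 1) and the offset without DB2313 replicate 2 (0.43, 0.0618), and ranged from 0.25 to 0.61 when 1 library was left out, passing only without DB2313 replicate 1. Leaving out 1 library gave -0.0032 to 0.060 for Slfn2, -0.40 to 0.20 for Slfn3, -0.11 to 0.37 for Slfn4, 0.080 to 0.36 for Slfn8 and -0.13 to 0.31 for Slfn9. Slfn2 turned to -0.016 with the offset, -0.016 with the replicate block and the offset, and -0.012 and -0.033 with the offset without DB2313 replicates 1 and 3. Slfn3 turned to 0.20 with the offset without DB2313 replicate 1 and to 0.0031 when summed with Slfn4, Slfn9 to -0.087 with the offset without DB2313 replicate 3, and Slfn8 passed at 0.37 with the offset without DB2313 replicate 1 (adjusted p 0.0213). The causes were not tested.

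With glmTreat 46 genes were higher and 40 lower over the whole table, 3 and 0 in the interferon response list, 0 and 0 in the signalling list and 0 and 0 in the cell cycle list. With the offset, 5 interferon response genes and 5 signalling genes were lower, and 4 cell cycle genes were higher and 2 lower (2 lower also with the block and offset). Leaving out 1 library gave 328 to 1097 higher and 411 to 1311 lower genes (fewest without DB2313 replicate 2, most without replicate 3), 13 to 29 higher and 1 to 7 lower interferon response genes, 1 to 5 higher and 1 to 7 lower signalling genes, and 1 to 4 higher and 0 to 2 lower cell cycle genes.

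Deviations from the group mean showed no likeness between same-numbered libraries (correlations of 0.0035, -0.024 and -0.12). This cannot show whether the libraries were paired, which the labels do not state. With the replicate block Slfn1 was at 0.41 (adjusted p 0.0168) and Slfn5 at 0.41 (0.0476), 1 signalling gene was lower and 1 cell cycle gene was higher, and no call of a member changed. Slfn3 and Slfn4 had 36 to 190 counts per library, which limits the precision of their fold changes.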
